A study of Mus musculus with 9 samples.

Results

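Circadian clock genes were followed in cultured mouse synovial fibroblasts (SFs), the mesenchymal cells that line the joint and drive cartilage and bone damage in arthritis. The 10 genes were chosen by name, as those rows of the 2 deposited tables that carry the symbols Arntl, Clock, Nr1d1, Nr1d2, Per2, Per3, Cry1, Cry2, Dbp and Tef, and they are 10 of 49548 genes measured. All 10 were found in both tables and all 10 were above 0 in every library. RNA was measured by QuantSeq, which reads a short stretch at the 3′ end of each polyadenylated transcript, so that each transcript gives about 1 read whatever its length. The SFs came from the ankles of mice aged 8 weeks, on a mixed CBA and C57BL/6J background, and were depleted of CD45+ cells at passage 1. In 3 libraries the SFs were WT. In 3 libraries they were hTNFtg, that is, they carried a human TNF transgene that causes arthritis, and were not treated with a drug (the methods describe vehicle). In the other 3 libraries hTNFtg SFs received infliximab, an antibody that neutralizes human TNF, at 1 µg/mL for 48 hours. The methods call the 3 libraries of a group biological replicates.

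The mammalian clock is a loop of transcription factors that runs in nearly every cell, fibroblasts included. BMAL1 (encoded by Arntl) and CLOCK bind E-boxes and switch on the Per, Cry, Nr1d1, Nr1d2, Dbp and Tef genes. The PER and CRY proteins then block BMAL1 and CLOCK, REV-ERBα and REV-ERBβ (Nr1d1 and Nr1d2) repress Arntl and other genes with REV-ERB response elements, and the PAR bZIP factors DBP and TEF act through D-boxes. In a running clock the genes with E-boxes and those with REV-ERB response elements peak at different times of day, so a level depends on when the cells are collected. The hour of harvest, and whether the cultures were synchronized, are not given in the sources used here. With a single collection per culture, a shift in phase, a loss of synchrony between cells and a change in level cannot be told apart.

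The elements that the loop works through were searched for, by their letters, in the promoters of the members. Windows from 250 bases before to 50 bases after the RefSeq start site (GRCm38.p6) were searched on both strands for the E-box CACGTG, the E′-box CACGTT, the D-box TTATGTAA or TTACGTAA, and a REV-ERB response element whose letters are those of the matches printed below for Arntl, with the last letter but one left free. A window was at hand for 9 of the 10 members and not for Per2. The E-box was found in Cry1 and Tef and in 7.15% of the 32851 windows of all genes (8.09% of 27025 genes). The E′-box was found in Nr1d1, Cry1 and Cry2 and in 4.68% of all windows (5.44% of genes). The D-box was found in Per3, and in 1.06% of all windows (1.23% of genes). The REV-ERB response element is in 0.06% of all windows, and as its letters are those known from Arntl, its presence there was given beforehand and is no result. These are matches of letters, not measured binding, and a window without a match says only that the letters are not in it. The windows of the 4 members that differed from WT in infliximab-treated SFs at an unadjusted P under 0.05 are shown on the strand of the gene, with the matched letters in capitals. Arntl is on the plus strand at chr7:113207261-113207560 (the later of its 2 windows, which holds both of its matches), Nr1d1 on the minus strand at chr11:98775328-98775627, Per3 on the minus strand at chr4:151044616-151044915, and Tef on the plus strand at chr15:81802423-81802722 (the earlier of 2 windows, both with an E-box).
Arntl: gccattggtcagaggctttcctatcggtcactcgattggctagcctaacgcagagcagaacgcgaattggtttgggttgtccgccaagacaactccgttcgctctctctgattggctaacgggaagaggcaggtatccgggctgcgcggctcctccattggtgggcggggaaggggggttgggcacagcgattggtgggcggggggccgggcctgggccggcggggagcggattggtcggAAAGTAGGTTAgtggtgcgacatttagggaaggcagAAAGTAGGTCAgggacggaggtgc
Nr1d1: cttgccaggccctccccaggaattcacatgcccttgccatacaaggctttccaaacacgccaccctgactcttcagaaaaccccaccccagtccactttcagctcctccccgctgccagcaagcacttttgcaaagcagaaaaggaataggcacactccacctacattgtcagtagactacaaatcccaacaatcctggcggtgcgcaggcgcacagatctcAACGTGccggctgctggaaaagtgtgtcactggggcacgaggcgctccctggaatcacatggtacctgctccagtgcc
Per3: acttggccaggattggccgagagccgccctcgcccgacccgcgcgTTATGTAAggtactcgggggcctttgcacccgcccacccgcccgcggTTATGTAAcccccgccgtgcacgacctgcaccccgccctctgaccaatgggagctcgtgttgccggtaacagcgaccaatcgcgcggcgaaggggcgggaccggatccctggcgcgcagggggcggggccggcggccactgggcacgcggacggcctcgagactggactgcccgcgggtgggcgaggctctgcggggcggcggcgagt
Tef: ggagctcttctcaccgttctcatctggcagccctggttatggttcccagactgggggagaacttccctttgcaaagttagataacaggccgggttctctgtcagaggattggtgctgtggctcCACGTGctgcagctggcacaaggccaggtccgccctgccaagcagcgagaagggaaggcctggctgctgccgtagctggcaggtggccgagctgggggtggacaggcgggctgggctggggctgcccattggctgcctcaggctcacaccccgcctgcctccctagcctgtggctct
In Arntl the response elements begin at positions -10 and 26 relative to the start site and are not identical, AAAGTAGGTTA and then AAAGTAGGTCA. In Per3 both D-boxes read TTATGTAA and begin at positions -205 and -158. The E′-box of Nr1d1 (read as AACGTG on this strand) begins at position -28, and the E-box of Tef at position -127.

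In the deposited coordinates (mm10) the activators lie at chr7:113207465-113314126 (Arntl) and chr5:76209868-76304792 (Clock), and the REV-ERB genes at chr11:98767932-98775333 (Nr1d1) and chr14:18204054-18239127 (Nr1d2). The period genes lie at chr1:91415982-91459324 (Per2) and chr4:151003652-151044665 (Per3), and the cryptochromes at chr10:85131700-85185064 (Cry1) and chr2:92403646-92434043 (Cry2). Dbp lies at chr7:45705088-45710203 and Tef at chr15:81802421-81826861.

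The libraries were not of equal depth. The approximate number of reads was 613344 in hTNFtg replicate 1 and between 3829135 and 9015459 in the other 8 libraries, so that 3 reads stand for 18.7 normalized counts in that library and for 1.60 to 3.31 in the others. Within the groups, Spearman's rho between libraries over 13600 genes was 0.931 to 0.964 in WT, 0.781 to 0.914 in hTNFtg and 0.948 to 0.967 after infliximab. The summed normalized count of 10 fibroblast markers was 42897 to 52372 in WT, 38549 to 46443 in hTNFtg and 36285 to 42513 with infliximab, in keeping with the label. Markers of other cells moved with the groups. The sum of the 9 macrophage markers found, of 10 listed, was 169 to 531 in WT (Cd163 at 0), 2679 to 5896 in hTNFtg and 1667 to 3240 after infliximab. The sum of the 5 chondrocyte markers found, of 6, was 6202 to 9330 in WT, 548 to 1212 in hTNFtg and 906 to 2517 with infliximab, and that of 15 hepatocyte markers was 83 to 150, 80 to 187 and 189 to 1476. The 1476 is treated replicate 3 alone, the only library with all 15 above 0, which also had the lowest Per3 and Tef of the treated libraries, and the other 2 treated libraries were at 196 and 189. The 6 endothelial markers summed to at most 12, the 8 muscle markers to at most 80, and the 6 proliferation markers to 1000 to 1686, 947 to 1113 and 873 to 1378. The part of these differences in the values of the clock genes was not tested, and in bulk RNA fewer cells of a type and less RNA per cell cannot be told apart.

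The rows of Dbp and Nr1d1 must be read with the genes on the other strand. In the GENCODE annotation of the same build, Dbp ends inside an exon of Sphk2, a sphingosine kinase gene on the opposite strand, and the 2 genes share 539 exon bases (chr7:45709665-45710203) that include the 3′ end of Dbp. Dbp stood at 275, 275 and 228 normalized counts in the WT libraries (in the order of their replicate numbers, as in all values that follow), at 286, 256 and 264 in untreated hTNFtg SFs and at 296, 280 and 300 after infliximab. Sphk2 was 277, 277 and 228, then 286, 256 and 264, then 296, 281 and 300. The rows were thus equal in 6 of 9 libraries and never differed by more than 2 normalized counts, so the deposited values of Dbp are also those of Sphk2 and cannot be told apart from them. Whether the authors' counting used strand is not given in the sources used here. The same near identity was seen in 20 of 115 pairs of genes that run tail to tail, share at least 300 exon bases at both 3′ ends and have means of at least 50, where identity was set at 2 percent in all 9 libraries.

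Nr1d1 lies tail to tail with Thra, which encodes thyroid hormone receptor α. In the deposited coordinates the genes overlap by 1075 bases that cover the 3′ end of Nr1d1, and in GENCODE they share 263 exon bases (chr11:98768157-98768419), which do not include the 3′ end of Nr1d1. Thra was 872, 766 and 951 normalized counts in WT, 579, 490 and 556 in hTNFtg, and 656, 559 and 632 with infliximab, which is 71.9% to 90.1% of the Nr1d1 value of the same library. The rows were equal in 0 of 9 libraries and differed by up to 241 normalized counts, unlike those of Dbp and Sphk2. Nr1d1 and Thra followed each other with a Pearson r of 0.96 over the 9 libraries, which also share their depth and their groups. Per3 lies within Camta1 on the same strand but shares no exon bases with it, and Camta1 was 18.8% to 66.7% of Per3. The other members had no overlapping gene of comparable count at their 3′ end.

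**Figure D1:**
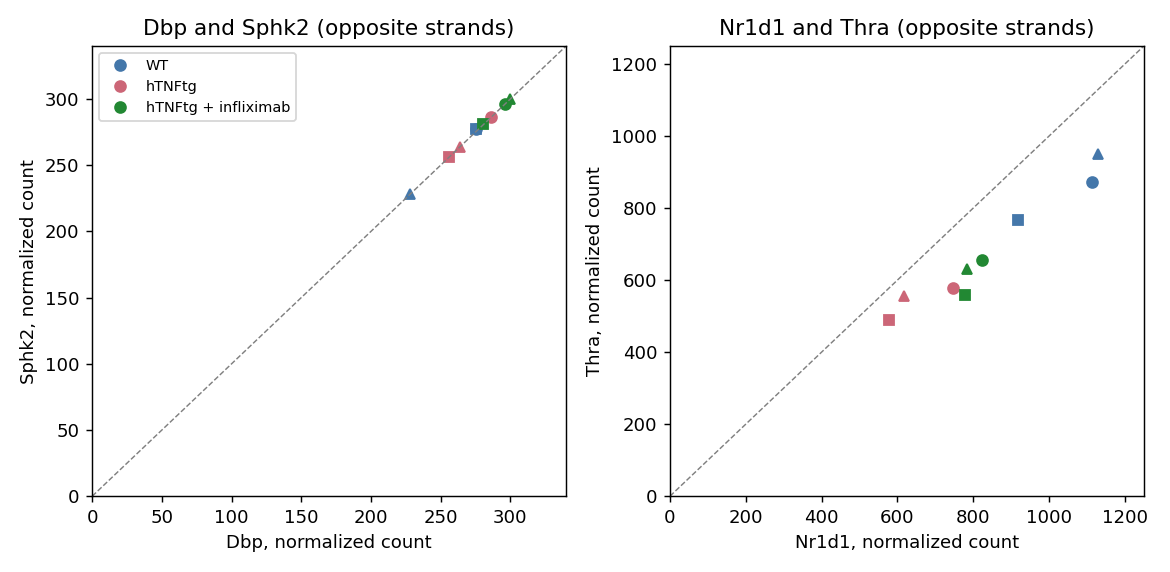
Normalized counts of Sphk2 against Dbp (left) and of Thra against Nr1d1 (right), each point a library, with circles, squares and triangles for replicates 1, 2 and 3. The dashed line marks equal values, on which Dbp and Sphk2 lie to within 2 normalized counts, while Thra lies at 71.9% to 90.1% of Nr1d1.

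To ask which clock genes differ in arthritic SFs, hTNFtg was compared with WT. Nr1d1 and Tef were lower in every hTNFtg library than in any WT library, and the other 8 members overlapped between the groups. None of the 10 passed the study's rule, by which the log2 fold change must reach 1 in either direction with P under 0.05 before adjustment, and which 6.39% of 28522 genes tested passed. None passed an adjusted p of 0.05 either (limma with Benjamini-Hochberg adjustment over all genes), which 0.48% of genes did. At an unadjusted P under 0.05 alone 1 of 10 differed, Nr1d1, against 7.72% of all genes (3.69% lower). Tef was also under that threshold with the replicate block and in the fit of all 9 libraries, and Nr1d1 was not with edgeR. Groups that did not overlap, with hTNFtg the lower, were seen for 2 of 10 members against 5.8% of all genes (11.4% in either direction) and 9.21% of those with a mean of at least 10. The median log2 fold change of the members was -0.23, against -0.07 over the 13634 genes with a mean of at least 10.

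To ask what blocking TNF does to them, infliximab-treated hTNFtg SFs were compared with untreated ones. No member passed the study's rule (2.43% of 28540 genes did) or an unadjusted P of 0.05 (3.59% of genes), and the smallest unadjusted P of the 10 was 0.289, for Nr1d1. No gene passed the adjusted threshold in the limma fit of these 6 libraries (0.0%), in which 1026 had an unadjusted P under 0.05. The limma fit of all 9 libraries called 3 genes, limma with array quality weights 65 and edgeR on approximate reads 165, of which 0 were members. The median log2 fold change of the members was -0.02. Nr1d1 was the 1 member whose groups did not overlap, with infliximab the higher, against 3.99% of all genes (7.44% in either direction) and 6.45% of those with a mean of at least 10.

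To ask where the treated SFs stand relative to healthy ones, infliximab-treated hTNFtg SFs were compared with WT. Tef, Per3 and Nr1d1 were lower and Arntl higher at an unadjusted P under 0.05, so 4 of 10 members against 11.9% of 28243 genes (3 lower against 5.68%, 1 higher against 6.23%). That share was not taken over genes with a mean of at least 10 alone, although every member had a mean of 29.6 or more over the 9 libraries. In a limma fit of all 9 libraries together none of the 4 was under an unadjusted P of 0.05. None had a log2 fold change of 1, and 0 of 10 passed the study's rule (6.81% of genes) or the adjusted threshold (0.74% of genes). Their adjusted p-values in limma were 0.33 to 0.39. Of the 10 members, 6 did not overlap between the groups (14.2% of all genes), 4 of them lower (Nr1d1, Nr1d2, Per3 and Cry2, against 7.07%) and 2 higher (Arntl and Dbp, against 7.14%). Among genes with a mean of at least 10, non-overlap was seen in 12.0% as lower and 11.3% as higher. The median log2 fold change of the members was -0.35, against -0.02 over the 13470 genes with a mean of at least 10. The 3 comparisons share their libraries 2 at a time, so their values for a member are not independent of each other.

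**Figure D2:**
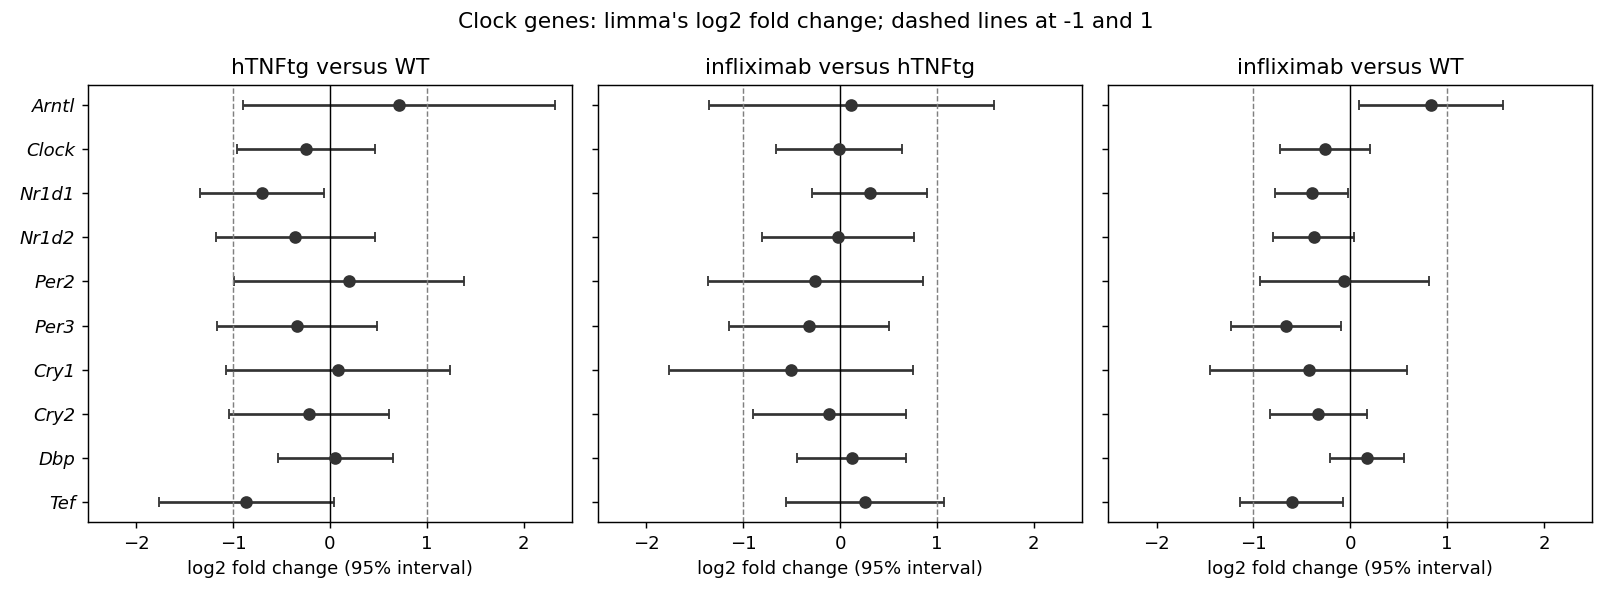
Log2 fold change of each clock gene (points) with its 95% interval (bars, limma) for hTNFtg against WT SFs (left), treated against untreated hTNFtg SFs (middle) and treated hTNFtg against WT SFs (right). Only Nr1d1 in the first comparison and Arntl, Nr1d1, Per3 and Tef in the last have intervals that leave out 0, and no point lies beyond the dashed lines at -1 and 1.

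The activators were read first. Arntl, which encodes BMAL1, stood at 24, 22 and 17 normalized counts in WT SFs, at 100, 44 and 9 in untreated hTNFtg SFs and at 30, 51 and 35 after infliximab. The WT libraries lay close together (21 ± 3.61, SD, n = 3), while the hTNFtg libraries held both the highest and the lowest value of all 9 (51 ± 45.9). The 100 of hTNFtg replicate 1 rests on 16 reads and the 9 of replicate 3 on 17. Infliximab-treated SFs (38.7 ± 11) stood above every WT library, with a log2 fold change of 0.83 ± 0.33 (SE), a 95% interval of 0.09 to 1.57 and an unadjusted P of 0.0322 (limma, adjusted p = 0.353), which was lost without WT replicate 2 or 3 or infliximab replicate 2. Against WT, hTNFtg SFs gave 0.71 ± 0.74, and infliximab against hTNFtg gave 0.12 ± 0.68, both with intervals on either side of 0. The latter has the opposite sign to the difference of the group means (38.7 against 51), as it is taken on log2 values.

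The hTNFtg value of Arntl turned on single libraries. Without hTNFtg replicate 1 the log2 fold change against WT was -0.04, and without hTNFtg replicate 3 it was 1.63 (unadjusted P = 0.00988, limma), past the study's rule. Clock, the partner of BMAL1, was steadier. It was 264, 222 and 170 normalized counts in WT, 224, 205 and 129 in hTNFtg, and 168, 181 and 190 with infliximab. All 3 groups overlapped, and the log2 fold changes were -0.25 (-0.96 to 0.46) in hTNFtg versus WT, -0.01 (-0.66 to 0.63) in infliximab versus hTNFtg and -0.26 (-0.72 to 0.20) in infliximab versus WT.

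The REV-ERB genes, the repressors of Arntl, came next. Nr1d1 was 1113, 918 and 1128 normalized counts in WT (1053 ± 117, SD, n = 3), 747, 577 and 617 in hTNFtg (647 ± 88.9), and 823, 778 and 783 with infliximab (795 ± 24.7). Every treated library lay above every hTNFtg library and below every WT library. The log2 fold change was -0.70 ± 0.29 (SE) in hTNFtg versus WT, with a 95% interval of -1.34 to -0.07 and an unadjusted P of 0.0334 (limma, adjusted p = 0.564). It was not under an unadjusted P of 0.05 with edgeR or in 3 of the 6 fits with a library left out, those without WT replicate 1, WT replicate 3 and hTNFtg replicate 2. In other fits of hTNFtg versus WT the unadjusted P of Nr1d1 was smaller (limma). It was 0.00353 with array quality weights (adjusted p = 0.0681), 0.00992 in the fit of all 9 libraries (0.223) and 0.0166 with the replicate block (0.534). In infliximab versus WT the log2 fold change was -0.40 ± 0.17 (unadjusted P = 0.0410, adjusted p = 0.391, limma). The unadjusted P under 0.05 was lost there in 4 of 6 fits with a library left out. It was also lost with median-ratio rescaling, array quality weights and edgeR, and in the fit of all 9 libraries. Infliximab versus hTNFtg gave 0.30 ± 0.28 (interval -0.29 to 0.90).

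The row of Thra gave similar values, with log2 fold changes of -0.67 ± 0.28 (SE) in hTNFtg versus WT, -0.48 ± 0.17 in infliximab versus WT and 0.18 ± 0.27 in infliximab versus hTNFtg, and whether reads of the 2 genes were counted in both rows was not tested. Nr1d2, which encodes REV-ERBβ and has no such neighbour, was 220, 191 and 227 normalized counts in WT, 262, 183 and 94 in hTNFtg, and 189, 157 and 146 with infliximab. Treated SFs lay below every WT library, with a log2 fold change of -0.38 and an interval of -0.80 to 0.04 (unadjusted P = 0.0731, limma). In hTNFtg SFs the value of -0.36 against WT rested on replicate 3, and without that library it was 0.05.

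**Figure D3:**
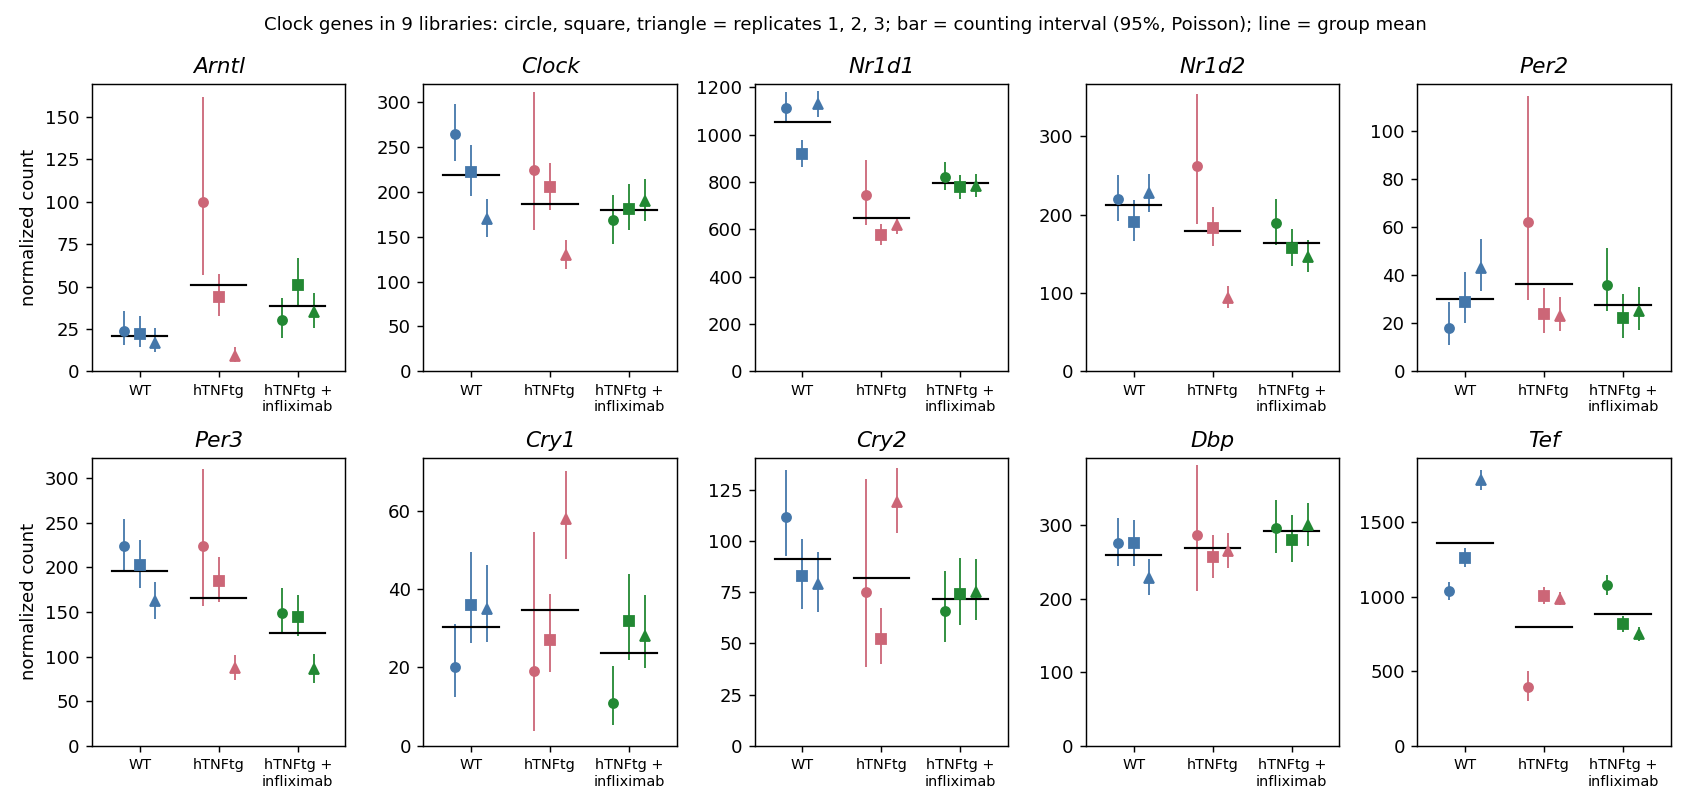
Normalized counts of the 10 clock genes in each library by group, with circles, squares and triangles for replicates 1, 2 and 3, bars for the 95% Poisson interval of the approximate reads and lines for group means. The bars are widest in hTNFtg replicate 1, and the libraries of WT and hTNFtg are apart in Nr1d1 and Tef alone.

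The period and cryptochrome genes, whose products close the loop, were next. Per3 was 224, 203 and 162 normalized counts in WT (196 ± 31.5, SD, n = 3), 224, 185 and 87 in hTNFtg (165 ± 70.6), and 149, 144 and 86 with infliximab (126 ± 35). Treated SFs were below every WT library, with a log2 fold change of -0.66 ± 0.25 (SE), an interval of -1.23 to -0.09 and an unadjusted P of 0.0267 (limma, adjusted p = 0.327). Without infliximab replicate 3, the library with the high hepatocyte markers, it was -0.41 and no longer under an unadjusted P of 0.05, which was also lost without WT replicate 1 or 2. Against WT the hTNFtg SFs gave -0.34 (-1.16 to 0.48), and 0.06 without hTNFtg replicate 3. Per3 in infliximab versus hTNFtg was -0.32 (-1.15 to 0.51).

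Per2 was 18, 29 and 43 normalized counts in WT, 62, 24 and 23 in hTNFtg, and 36, 22 and 25 after infliximab. The 62 rests on 10 reads, all groups overlapped, and the log2 fold changes ranged from -0.26 to 0.20 over the 3 comparisons. Cry1 was 20, 36 and 35 normalized counts in WT, 19, 27 and 58 in hTNFtg, and 11, 32 and 28 after infliximab. The 19 of hTNFtg replicate 1 is 3 reads, and the log2 fold changes of Cry1, 0.08 in hTNFtg versus WT, -0.51 in infliximab versus hTNFtg and -0.43 in infliximab versus WT, each had an interval that holds a change of 2 times in at least 1 direction. So did those of Per2 in hTNFtg versus WT (up to 1.38) and in infliximab versus hTNFtg (down to -1.37). Without infliximab replicate 1, Cry1 was at -0.05 in infliximab versus hTNFtg and at 0.03 in infliximab versus WT.

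Cry2 was 112, 83 and 79 normalized counts in WT, 75, 52 and 119 in hTNFtg, and 66, 74 and 75 after infliximab. The treated libraries lay within a narrow range (71.7 ± 4.93, SD, n = 3) below every WT library (91.3 ± 18.0), with a log2 fold change of -0.33 (-0.83 to 0.17). Without WT replicate 1 that fold change was -0.18. The hTNFtg libraries spanned both other groups. Cry1 and Cry2 were both highest in hTNFtg replicate 3, the library in which Arntl, Clock, Nr1d2 and, within its group, Per3 were lowest.

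The PAR bZIP genes, outputs of the loop, came last. Tef was 1038, 1263 and 1786 normalized counts in WT (1362 ± 384, SD, n = 3), 392, 1006 and 987 in hTNFtg (795 ± 349), and 1078, 820 and 749 after infliximab (882 ± 173). The hTNFtg libraries were all below the WT libraries, replicate 1 by the most, and the log2 fold change was -0.86 ± 0.41 (SE), with an interval of -1.77 to 0.04 (unadjusted P = 0.0602, adjusted p = 0.684, limma). Without hTNFtg replicate 1 it was -0.41. Without hTNFtg replicate 2 or 3 it was -1.09 (unadjusted P = 0.0498) and -1.08 (unadjusted P = 0.0372, limma), both past the study's rule. In infliximab versus WT it was -0.61 ± 0.24 (unadjusted P = 0.0303, adjusted p = 0.342, limma), although treated replicate 1 lay above WT replicate 1. Without WT replicate 3 it was -0.39, and the unadjusted P under 0.05 was lost in 4 of 6 fits with a library left out. With the replicate block the unadjusted P of Tef was 0.0368 in hTNFtg versus WT and 0.107 in infliximab versus WT (limma). In the fit of all 9 libraries these were 0.0350 and 0.123 (limma). Infliximab versus hTNFtg gave 0.25 (-0.56 to 1.07).

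The row of Dbp, which is also that of Sphk2, had log2 fold changes of 0.05 (-0.54 to 0.65) in hTNFtg versus WT, 0.12 (-0.44 to 0.68) in infliximab versus hTNFtg and 0.18 (-0.21 to 0.56) in infliximab versus WT. The intervals leave out a change of 2 times in either direction in all 3 comparisons. Its highest library was 1.32 times its lowest over all 9, where the other members ranged from 1.95 times in Nr1d1 to 11.1 times in Arntl. Treated SFs lay above every WT library, by about the error of the difference (0.18 ± 0.17, SE, unadjusted P = 0.330, limma).

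**Figure D4:**
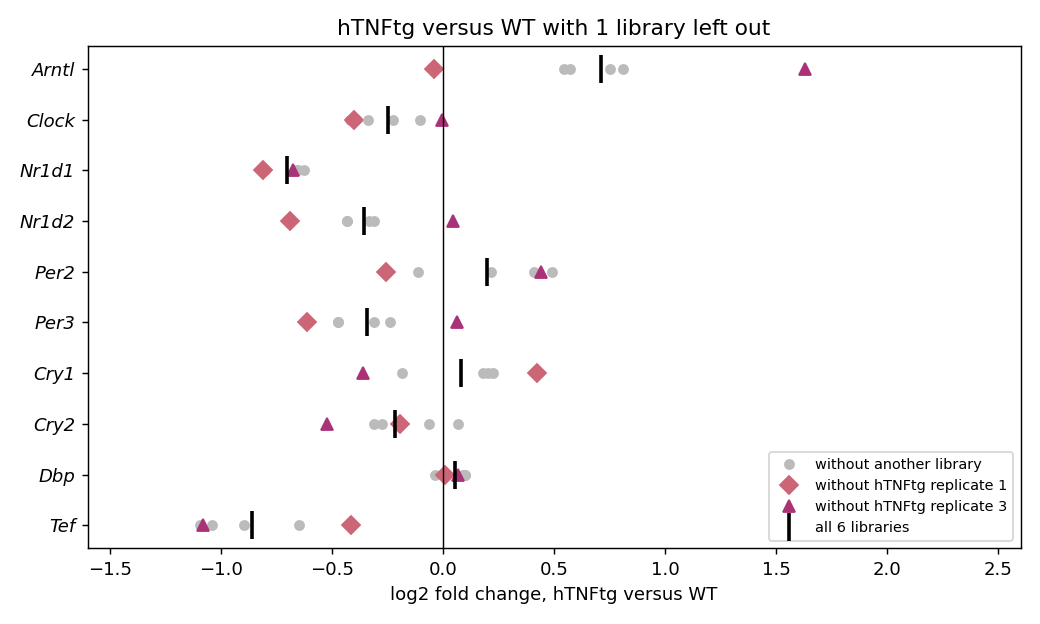
Log2 fold change of each clock gene in hTNFtg versus WT with all 6 libraries (black bars) and with 1 library left out (points), with the fits without hTNFtg replicate 1 as diamonds and without hTNFtg replicate 3 as triangles. Nr1d1, Tef and Clock stay below 0 in every fit, Clock at -0.01 without hTNFtg replicate 3, while Arntl runs from -0.04 to 1.63.

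The spread among the libraries of a group was read as the SD of the log2 values. Over the 7 members with a mean of at least 50 its median was 0.59 in hTNFtg, 0.24 in WT and 0.10 with infliximab, against 0.51, 0.29 and 0.22 over the 8631 genes with such a mean, and 4 of the 7 lay above 0.51 in hTNFtg. Over all 10 members the SD in hTNFtg ran from 0.08 in Dbp to 1.69 in Arntl. The part of the depth of replicate 1 in this spread was not tested. These are descriptions of 3 libraries a group.

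The balance between the arms of the loop was described, without a test, as the mean log2 value of Nr1d1, Nr1d2, Dbp, Tef, Per2 and Per3 (driven through E-boxes) minus that of Arntl, Clock, Cry1 and Nfil3 (held to be bound by ROR and REV-ERB factors). The arms follow what is known of these genes and not the promoter search, which found the response element in Arntl alone of the members, and Cry1 also has an E-box and an E′-box and could stand in either arm. It was 2.05, 2.11 and 2.52 in WT, 1.77, 1.79 and 2.12 in hTNFtg, and 2.45, 1.72 and 1.80 after infliximab. The ranges of hTNFtg and WT met at hTNFtg replicate 3 and the 2 lower WT libraries, and the treated libraries overlapped both. With Dbp and Nr1d1 left out for the overlap of their 3′ ends with other genes, an alternative added after the data were seen, the group means were 1.77 ± 0.33 (SD, n = 3) in WT, 1.43 ± 0.09 in hTNFtg and 1.42 ± 0.47 after infliximab. The contrast of a repressor and its target, log2 Nr1d1 minus log2 Arntl, was 5.48, 5.32 and 5.97 in WT and 4.73, 3.91 and 4.44 with infliximab. In hTNFtg it was 2.89, 3.68 and 5.95, so replicate 3 stood with WT and the other two below all other libraries.

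Genes around the 10 were read from a list of 30 further clock genes, of which 29 or 30 were tested. None rose or fell by the study's rule in hTNFtg versus WT (against 6.39% of all genes), and 1 of 30 fell in infliximab versus hTNFtg (2.43%) and in infliximab versus WT (6.81%), in both Prkaa2, a catalytic subunit of AMP kinase. Prkaa2 was at 3, 4 and 5 normalized counts in WT, 12, 2 and 3 in hTNFtg and 0, 1 and 0 with infliximab, which is 1 read in all in the treated libraries and at most 8 in any library. Counts this low are near the limit that 3 reads set. The median log2 fold change of the list was -0.04, 0.08 and 0.03 in the 3 comparisons, and no gene of it passed the adjusted threshold. At an unadjusted P under 0.05 alone 2 of 29 genes differed in hTNFtg versus WT, against 7.72% of all genes. They were Bhlhe40, which was higher, and Sfpq, an RNA-binding partner of the PER complex named after its values were seen, which was lower in hTNFtg versus WT (log2 fold change -0.68 ± 0.31, SE) and in infliximab versus WT (-0.53 ± 0.17), with groups that did not overlap. In infliximab versus hTNFtg 2 of 30 differed at that level (3.59% of all genes), Prkaa2 and its sister subunit Prkaa1 (-0.82 ± 0.33), both lower. In infliximab versus WT 4 of 30 did (11.9% of all genes), among them Prkaa2 and Sfpq, which were lower, and Csnk1e, a kinase gene for PER (0.47), which was higher. Prkaa1 and Csnk1e too were named after their values were seen.

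Bhlhe40, which encodes the E-box repressor DEC1, was 109, 105 and 103 normalized counts in WT, 181, 127 and 221 in hTNFtg, and 127, 140 and 149 with infliximab. Both hTNFtg groups lay above every WT library, with a log2 fold change of 0.70 ± 0.31 (SE) in hTNFtg versus WT (unadjusted P = 0.0460, adjusted p = 0.635, limma) and 0.39 ± 0.19 in infliximab versus WT. Its paralog Bhlhe41 (DEC2) was 35, 33 and 43, then 69, 29 and 52, then 46, 35 and 32, and overlapped in all comparisons. Per1, the remaining period gene, was 61, 77 and 58 in WT, 50, 56 and 49 in hTNFtg, and 42, 91 and 67 with infliximab. Its hTNFtg libraries were all below WT, with a log2 fold change of -0.32 (-1.08 to 0.43).

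Rora, an activator at the same elements that REV-ERB represses, was 249, 198 and 162 normalized counts in WT, 417, 206 and 198 in hTNFtg, and 258, 173 and 255 with infliximab. Nfil3, a repressor at D-boxes, was 108, 78 and 68 in WT, 75, 68 and 36 in hTNFtg, and 76, 55 and 51 with infliximab. Their log2 fold changes in hTNFtg versus WT were 0.36 (-0.41 to 1.14) and -0.54 (-1.39 to 0.32). Ciart (a repressor in the loop) was 12 to 25 in all libraries, Npas2 (a relative of Clock) 4 to 15, and Hlf (the PAR bZIP relative of Dbp and Tef) 0 to 7, and none of the 3 passed any threshold.

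Of 21 symbols listed for genes known as clock outputs or as genes by which signals reset the clock, 19 were found. Symbols were matched as written, so an older name of a measured gene counts as not found. In hTNFtg versus WT 2 rose and 1 fell by the study's rule (3 of 19 against 6.39% of all genes), none changed in infliximab versus hTNFtg (2.43% of all genes), and 1 rose in infliximab versus WT (6.81%). At an unadjusted P under 0.05 alone 4, 1 and 6 of the 19 differed, against 7.72%, 3.59% and 11.9% of all genes, the 6 being Klf9, Fkbp5, Sgk1 and Egr1 as higher and Pik3ip1 and Tsc22d3 as lower. These genes came from lists drawn up with earlier results of these data known, so the counts are a description. Pik3ip1, an inhibitor of PI3 kinase, was 336, 372 and 255 normalized counts in WT, 100, 139 and 103 in hTNFtg, and 209, 164 and 206 with infliximab. Its log2 fold change was -1.48 ± 0.30 (SE) in hTNFtg versus WT (adjusted p = 0.0617, limma), 0.76 ± 0.29 in infliximab versus hTNFtg (unadjusted P = 0.0213, adjusted p = 0.803) and -0.72 ± 0.21 in infliximab versus WT, and no 2 groups overlapped. Fkbp5, a co-chaperone, was 25, 36 and 16 in WT, 50, 57 and 47 in hTNFtg, and 68, 38 and 45 with infliximab. Its log2 fold change was 1.04 ± 0.44 in hTNFtg versus WT (adjusted p = 0.594, limma).

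Fos, an immediate early gene, was 22, 9 and 1 normalized counts in WT, 118, 15 and 27 in hTNFtg, and 28, 20 and 16 with infliximab. Its log2 fold change of 2.29 ± 0.97 (SE) in hTNFtg versus WT passed the study's rule although the groups overlap, and the 118 is 19 reads of hTNFtg replicate 1. Klf9 was 102, 39 and 26 in WT, 137, 59 and 52 in hTNFtg, and 112, 69 and 142 with infliximab. Its log2 fold change of 1.12 ± 0.47 in infliximab versus WT passed the study's rule with overlapping groups (adjusted p = 0.380, limma). Sgk1, a kinase gene, was named after its values were seen. It did not reach the study's rule, with a log2 fold change of 0.95 ± 0.27 in hTNFtg versus WT and 0.57 ± 0.18 in infliximab versus WT (adjusted p = 0.218 and 0.226, limma), but no groups overlapped. Tsc22d3, also named after its values were seen, went the other way. Its log2 fold change was -0.53 ± 0.30 in hTNFtg versus WT and -0.55 ± 0.20 in infliximab versus WT (adjusted p = 0.726 and 0.293, limma). The groups of Tsc22d3 did not overlap in these comparisons, and did in infliximab versus hTNFtg. None of the 19 passed the adjusted threshold in any comparison.

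Likeness over the 9 libraries was ranked for Dbp and Arntl among 12870 genes, by Pearson r of the log2 values and without a test, since the libraries share groups and depth. The genes most like Dbp were Sphk2 (0.999), Ano8 (0.923) and Scamp5 (0.923). No other member came close, the highest being Arntl at 0.43 and the lowest Tef at -0.63. The genes most like Arntl were Gtpbp2 (0.974), Gm13904 (0.967) and Ager (0.966). Among members the highest r with Arntl was 0.56, of Nr1d2, and the lowest -0.74, of Tef, while Nr1d1 stood at -0.18.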

How the data were processed

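The 9 libraries of SFs were made with QuantSeq and read on an Ion Proton machine. According to the methods and the submitters' processing notes, reads were mapped to mm10 with TopHat2, leftover reads with Bowtie2, counted per gene with GenomicRanges and normalized with DESeq through metaseqR (versions not stated). The value per gene and library that the authors deposited is a score, a count normalized by a factor per library and rounded to a whole number. In hTNFtg replicate 1 the deposited signal lies on whole reads times that factor, rounded, for 99.4% of values. Untreated hTNFtg libraries are in both deposited tables with equal values and were used once. A further 24 per-sample columns (log2 and rescaled forms) and the authors' own fold changes and p-values were not used.

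What 1 read is worth was estimated for each library from how often each low whole-number value occurs, and gave approximate reads. It was 6.23 normalized counts in hTNFtg replicate 1 and 0.534 to 1.10 in the others. The estimate was tested on simulated data, where 9 of 9 steps were recovered within 1 percent. Poisson intervals cover counting error only. Groups were compared with limma 3.58.1 (lmFit, eBayes with trend) in R 4.3.3 on log2(normalized count + 1), over the 6 libraries compared and genes above 0 in at least 1 of them, so fold changes of low genes are understated. P-values were adjusted by Benjamini-Hochberg over all genes tested. On simulated counts for hTNFtg versus WT (24686 genes, 200 changed 4-fold), this test found 82.5% of the changed genes by the study's rule and 18% after adjustment, and edgeR 90.5% and 57%. Of the unchanged genes, 580 with limma and 628 with edgeR also passed the study's rule, and 0 after adjustment.

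Alternatives were a pseudocount of 5, a mean of at least 10, rescaling by median ratios, array quality weights, a replicate block, all 9 libraries in a single fit, edgeR 4.0.16 (quasi-likelihood) on the approximate reads, and each library left out. Named were the 10 members, 8 set genes of the further clock list, genes of 2 lists past the study's rule, and the 3 genes most like Dbp and Arntl. Thra, Camta1 and the genes of these lists named only for an unadjusted P under 0.05 were added after their values were seen. A gene of the further clock list is not reported here. The members and lists were chosen with earlier results of these data known. Promoters are from RefSeq (GRCm38.p6), and shared exons from GENCODE vM21.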

Additional observations from a re-analysis of the deposited data

How the results depend on the processing

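No member passed an adjusted p of 0.05 in any comparison under any alternative run, and with all libraries none passed the study's rule. With 1 library left out, 0 to 2 members passed it in hTNFtg versus WT: Tef without hTNFtg replicate 2, and Tef and Arntl without hTNFtg replicate 3. Over the alternatives that kept all libraries, 201 of 210 member fold changes kept their direction and side of that rule.

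The 9 that changed sign were in infliximab versus hTNFtg with array quality weights Arntl (-0.070), Per2 (0.073), Cry2 (0.32) and Tef (-0.11), and with edgeR Arntl (-0.075) and Clock (0.021). In hTNFtg versus WT with array quality weights they were Per2 (-0.16), Cry1 (-0.13) and Dbp (-0.015). With a library left out, 24 of 180 changed sign. The ranges in hTNFtg versus WT were -0.039 to 1.63 for Arntl, -0.69 to 0.046 for Nr1d2, -0.26 to 0.49 for Per2, -0.61 to 0.065 for Per3, -0.36 to 0.42 for Cry1, -0.52 to 0.066 for Cry2 and -0.035 to 0.10 for Dbp. In infliximab versus hTNFtg they were -0.80 to 0.87 for Arntl, -0.25 to 0.14 for Clock, -0.42 to 0.31 for Nr1d2, -0.50 to 0.20 for Per2, -0.40 to 0.19 for Cry2 and -0.19 to 0.49 for Tef. In infliximab versus WT they were -0.37 to 0.23 for Per2 and -0.70 to 0.027 for Cry1.

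Unadjusted P under 0.05 was lost by Nr1d1 in hTNFtg versus WT with edgeR and without WT replicate 1, WT replicate 3 or hTNFtg replicate 2. It was gained there by Tef with the replicate block, in the fit of all 9 libraries and without hTNFtg replicate 2 or 3, and by Arntl without hTNFtg replicate 3. In infliximab versus hTNFtg it was gained by Nr1d1 with array quality weights and without hTNFtg replicate 1, and by Per3 without hTNFtg replicate 3. In infliximab versus WT it was lost by Nr1d1, Tef, Per3 and Arntl in the fit of all 9 libraries, by Nr1d1 also with median-ratio rescaling, array quality weights and edgeR, and by Tef with the replicate block. Without 1 library it was lost there by Nr1d1 in 4 of 6 fits, Tef in 4, Per3 in 3 and Arntl in 3, and gained by Clock without WT replicate 3 and Nr1d2 without infliximab replicate 1. The cause was not tested.

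Replicate numbers are shared between groups. Deviations of same-numbered libraries correlated at -0.14 to 0.35 in hTNFtg versus WT, 0.07 to 0.27 in infliximab versus hTNFtg and -0.15 to 0.10 in infliximab versus WT. Differently numbered libraries gave -0.49 to 0.24, -0.26 to 0.13 and -0.17 to 0.22. In infliximab versus hTNFtg the same-numbered values were thus all above 0, and these correlations do not settle whether equal numbers mark paired samples. The main fits do not pair them. With the replicate block 0 members passed the study's rule in each comparison, and over all genes 1659, 605 and 1698 passed it and 0 after adjustment, against 1823, 693 and 1923, and 137, 0 and 209, without it.

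Over all genes, counts past the study's rule moved by more than 1.5 times in hTNFtg versus WT with array quality weights (3540) and a mean of at least 10 (1183). In infliximab versus hTNFtg they did so with array quality weights (2125), edgeR (1229), a mean of at least 10 (314) and a pseudocount of 5 (351). In infliximab versus WT they did so with a mean of at least 10 (1056) and a pseudocount of 5 (1057). Left-out libraries gave 1382 to 2407, 418 to 1411 and 1681 to 2516. Adjusted counts in hTNFtg versus WT were 381 in the fit of all 9 libraries, 1004 with weights, 921 with edgeR and 1 to 44 with a library left out. In infliximab versus hTNFtg they were 3, 65, 165 and 0, and in infliximab versus WT 69, 378, 1321 and 0 to 1, with 488 at a mean of at least 10. Depth limits Cry1, Per2, Cry2 and Arntl most, at 3, 10, 12 and 16 reads in hTNFtg replicate 1.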
